A study of Mus musculus with 6 samples.

Results

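The genes described here are 10 members of the enzyme systems that remove superoxide and hydrogen peroxide. They are the peroxiredoxins Prdx1, Prdx2, Prdx5 and Prdx6, thioredoxin (Txn1), thioredoxin reductase 1 (Txnrd1), sulfiredoxin (Srxn1), the superoxide dismutases Sod1 and Sod2, and catalase (Cat). They were chosen by symbol, and all 10 were found among the 38293 gene identifiers of the deposited matrices. The study sorted live CD11b+ cells, CD11b being an integrin of myeloid cells, from the spinal cord of C57BL/6 mice aged 10 weeks. Before the sort, cells were incubated with 10 µM DCFDA, a dye that fluoresces once it is oxidised inside the cell, so that cells with (ROS+) and without (ROS-) a signal for reactive oxygen species could be collected apart. The 6 libraries form 3 groups of 2: EAE ROS+ and EAE ROS-, from mice at the onset (score 1) of EAE (experimental autoimmune encephalomyelitis), which is induced with the myelin peptide MOG35-55 and used to model multiple sclerosis, and Healthy ROS-, from healthy mice. A healthy ROS+ group was not analysed here. Each library was made with the 10x Chromium 3′ v2 kit, which counts transcripts near their 3′ end by unique molecular identifiers (UMIs). The sources used here do not say whether libraries came from separate mice, so the p-values measure the spread between these libraries, which may be technical.

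Superoxide dismutases turn superoxide into hydrogen peroxide, Sod1 mainly in the cytosol and Sod2 in the mitochondrial matrix. Catalase breaks hydrogen peroxide down in peroxisomes, and peroxiredoxins reduce it with a reactive cysteine that thioredoxin restores, while thioredoxin reductase recharges thioredoxin with electrons from NADPH. Sulfiredoxin rescues peroxiredoxins whose cysteine has been overoxidised. Phagocytes such as microglia and monocyte-derived macrophages also produce superoxide with their NADPH oxidase, so they make as well as remove these molecules. Several of these genes are known targets of the transcription factor Nrf2, and Sod2 is a known target of NF-kB.

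The files held 9079 barcodes, beside the 8701 cells that the study's design text states, and 9078 cells were kept, each with 200 or more genes and no more than 10% of its UMIs from mitochondrial genes. Libraries held 915197 to 23407825 UMIs, with a median of 2178 to 9543 UMIs per cell, and the 2 healthy libraries were the shallowest. Cells were classed by UMIs of marker genes into 2795 microglia, 5790 monocyte-derived cells, 88 dendritic cells and 48 T/NK cells, with 11 neutrophils and 346 cells left unassigned. A cell needed at least 3 markers of its class. The share of microglial UMIs among microglial and monocyte-derived marker UMIs had to be at least 40% for microglia and at most 20% for monocyte-derived cells, and dendritic and T/NK cells were allowed at most 5 of the 12 monocyte-derived markers. These limits were set after the cells had been seen, and 185 cells lay within 10 percentage points of the limit for microglia. Replicate 1 is always given before replicate 2. EAE ROS+ had 33 and 21 microglia, EAE ROS- had 554 and 242, and Healthy ROS- had 1745 and 200. EAE ROS+ had 1676 and 2190 monocyte-derived cells, EAE ROS- had 814 and 1110, and no cell of Healthy ROS- was classed so. All 8 microglial markers, among them Tmem119, P2ry12 and Sall1, were at 98 to 103 UMIs per 10000 summed in healthy microglia and at 23.2 to 34.1 in EAE microglia. Across the libraries, 42 barcodes occurred more than once, at most 0.495% of the smaller library of a pair.

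In microglia of the ROS- gate, 7 of the 9 genes that could be tested were higher at EAE onset than in health, and none was lower. The 7 were the peroxiredoxins Prdx1, Prdx2, Prdx5 and Prdx6, the thioredoxin pair Txn1 and Txnrd1, and the mitochondrial dismutase Sod2, with log2 fold changes from 0.98 to 2.79. Sod1 and Cat did not pass the test, and Srxn1 had too few UMIs to be tested. Over all 9033 genes tested, 27.4% were called in either direction and 15.5% were called higher. The median log2 fold change was 1.42 over the 9 members tested and -0.04 over all genes tested.

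**Figure D1:**
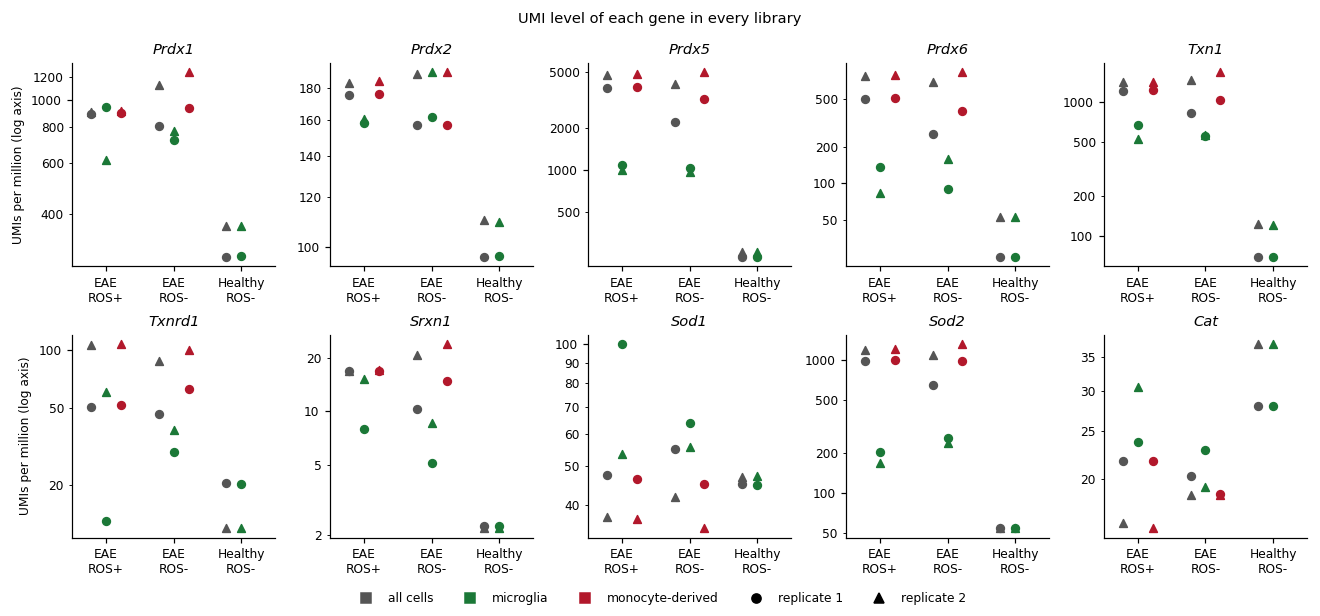
Each panel shows 1 gene, with its level in CPM (UMIs of the gene scaled to 1000000 UMIs of the summed cells) on a log axis; points are single libraries, coloured by the cells summed and shaped by replicate number. Healthy microglia (green, right) lie below EAE microglia for Prdx1, Prdx2, Prdx5, Prdx6, Txn1 and Sod2, while the Sod1 gap is small and Cat in EAE ROS- lies below its healthy level.

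Levels are given in CPM, the UMIs of a gene scaled to 1000000 UMIs of all genes in the cells summed. Prdx1, a cytosolic peroxiredoxin known to be induced by oxidative stress, was at 721 and 778 CPM in EAE ROS- microglia and at 284 and 363 in healthy microglia. Both EAE libraries lay above both healthy libraries, and the fitted log2 fold change was 1.42 ± 0.27 (SE; edgeR, adjusted p = 0.000898). Prdx2, another cytosolic peroxiredoxin, abundant in red blood cells, was at 162 and 191 against 96.5 and 109 CPM. That is the smallest of the 7 changes, at 0.98 ± 0.23 (edgeR, adjusted p = 0.00377). Prdx5, which works in mitochondria, peroxisomes and cytosol, was at 1031 and 962 CPM in EAE ROS- and at 242 and 262 in health. Its log2 fold change was 2.20 ± 0.24 (edgeR, adjusted p = 4.51e-06), and replicates of each group lay close together. Prdx6, whose oxidised cysteine is reduced by glutathione rather than thioredoxin, was at 89.5 and 159 against 24.9 and 52.5 CPM. The groups did not overlap, but within each the replicates differed by more than for the other peroxiredoxins (log2 fold change 1.99 ± 0.36, edgeR, adjusted p = 0.000571).

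Txn1, the cytosolic thioredoxin, showed the largest fold change of the 9 genes tested in microglia. It was at 555 and 563 CPM in EAE ROS- and at 70.1 and 122 in health, a log2 fold change of 2.79 ± 0.30 (edgeR, adjusted p = 3.34e-06). Txnrd1, its reductase, was scarce, at 29.8 and 38.6 against 20.4 and 12.04 CPM, the last of these from 11 UMIs. Its log2 fold change was 1.16 ± 0.37 (edgeR, adjusted p = 0.0269), and the call was lost without EAE ROS- replicate 1 (adjusted p = 0.0542), without EAE ROS- replicate 2 (adjusted p = 0.1495), with DESeq2 (adjusted p = 0.0965) and with plain library totals (adjusted p = 0.0804). Srxn1 gave 26 and 12 UMIs in EAE ROS- microglia and 10 and 2 in healthy microglia, or 5.07 and 8.57 against 2.26 and 2.19 CPM. Those counts lay below the minimum for the test.

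Sod2 was at 256 and 237 CPM in EAE ROS- microglia and at 54.0 and 54.7 in healthy microglia, a log2 fold change of 2.40 ± 0.24 (edgeR, adjusted p = 1.99e-06). The 2 groups were far apart next to the gap between replicates. Sod1, the cytosolic dismutase, was at 64.0 and 55.7 against 44.8 and 47.1 CPM. Its EAE libraries were the higher ones, but the difference of 0.62 ± 0.28 on the log2 scale did not pass the test (edgeR, adjusted p = 0.107). Cat was at 22.8 and 19.3 CPM in EAE ROS- microglia and at 28.0 and 37.2 in healthy microglia. It is the only member whose 2 EAE libraries both lay below the healthy ones, and the difference of -0.33 ± 0.31 did not pass the test (edgeR, adjusted p = 0.502).

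**Figure D2:**
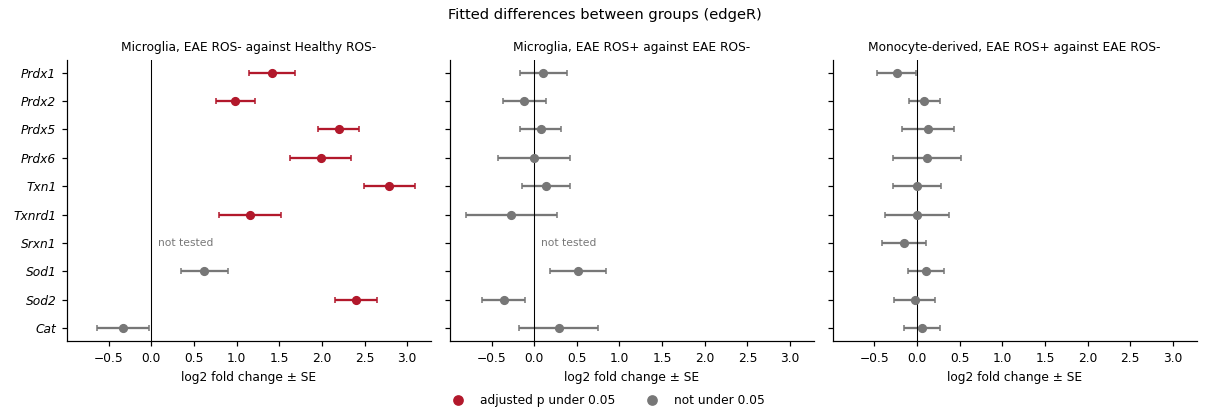
Points are log2 fold changes fitted with edgeR and bars are their standard errors, for each gene in 3 comparisons named above the panels; red marks an adjusted p under 0.05. The 7 red genes of the left panel lie at 0.98 to 2.79, and none is red in the comparisons of the ROS gate.

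UMIs of monocyte-derived markers moved with this difference. The 12 monocyte-derived markers summed to 9.79 and 9.65 UMIs per 10000 in EAE ROS- microglia, to 0.595 and 0.941 in healthy microglia, and to 67.8 and 97.6 in the monocyte-derived cells of the same EAE ROS- libraries. Prdx1, Prdx5, Prdx6, Txn1, Txnrd1 and Sod2 were also called higher in those monocyte-derived cells than in these microglia. Neither the source of these marker UMIs in microglia nor their part in the result was tested. With stricter limits (at least 4 markers and a microglial share of at least 90%), 130 and 44 EAE ROS- microglia remained, and their monocyte-derived markers fell to 2.95 and 3.72 per 10000. Among these cells 1238 genes were called in either direction, against 2477 in the main fit. Over all alternatives of this comparison the most called was 2839. Whether members lost more calls than other genes was not tested. Under the stricter limits 5 members were called higher: Txn1 (log2 fold change 2.26), Prdx5 (1.54), Txnrd1 (1.47), Sod2 (1.45) and Prdx1 (1.12). Prdx6 was then at 1.08 (edgeR, adjusted p = 0.0855) and Prdx2 at 0.70 (edgeR, adjusted p = 0.0763). Without EAE ROS- replicate 2 the number called was also 5, and Prdx2 had an adjusted p of 0.0801. The healthy replicate 2 library held endothelial markers at 10.4 per 10000 in its microglia, against 0.13 in healthy replicate 1, and without it 7 members were called. With plain library totals in place of edgeR's scaling the median of all genes moved by -0.23, 1050 genes were called higher and 1664 lower instead of 1404 and 1073, and 6 members were called higher.

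Other genes of these systems were tested in the same fit. Of 20 further peroxiredoxin and thioredoxin genes, 17 were tested, 6 were higher and 3 lower, and their median log2 fold change was 0.54. The methionine sulfoxide reductase Msrb1 was higher by 2.46 ± 0.27 and glutaredoxin (Glrx) by 2.73 ± 0.32 on the log2 scale. Txnip, which binds and inhibits thioredoxin, was lower by 1.62 ± 0.24, at 57.1 and 70.7 CPM in EAE ROS- and 206 and 245 in health. Of 18 genes for Nrf2 and its known targets, 15 were tested, 9 were higher and none lower, with a median of 0.91. The cystine transporter Slc7a11 led them, at 80.5 and 40.0 CPM against 2.49 and 2.19 (log2 fold change 4.90 ± 0.45). Of 12 NF-kB targets, 11 were tested, 3 were higher and 1 lower, with a median of 0.17. Il1b (3.84 ± 0.29) and Cxcl2 (3.14 ± 0.35) were the named genes of that list. Among 9 other superoxide and peroxide genes, 8 were tested, 1 was higher and none lower, and the median was 0.14.

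Since several members rose together in microglia, their promoters were searched for TGACNNNGC, the core letters of the antioxidant response element that Nrf2 is known to bind, on both strands. RefSeq windows (GRCm38.p6) of 250 bases before to 50 bases after the annotated start were given for 9 of the 10 genes, Prdx6 being the exception. The letters were found in 4 of these 9 genes, and in 14.0% of the 27025 gene symbols with a window. Each match lies on the strand opposite to the gene, so the gene's own strand reads GCNNNGTCA, in capitals below, with 10 bases on either side.
Prdx1, 133 bases before the start, chr4:116685456-116685484 (+): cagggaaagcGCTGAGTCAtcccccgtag
Txnrd1, 92 bases before the second of its annotated starts, chr10:82859104-82859132 (+): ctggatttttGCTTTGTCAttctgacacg
Sod1, 56 bases before the start, chr16:90220696-90220724 (+): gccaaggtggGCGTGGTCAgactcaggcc
Srxn1, at base 29 of the transcript, chr2:152105542-152105570 (+): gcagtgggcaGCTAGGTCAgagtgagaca
The match in Prdx1 and Txnrd1 accompanies genes called higher, and that in Sod1 a gene that was not called. The windows of Prdx2, Prdx5, Txn1, Sod2 and Cat did not hold these letters. A single fixed NF-kB site of 10 bases, with no variable base, was searched in the same way. It was in no window of the 9 genes and in 0.174% of symbols. At that share its absence was likely in advance, and other forms of the NF-kB site were not searched. A match is a description of the sequence and not evidence of binding.

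In the annotation of the same build (GENCODE M21 on GRCm38), the genes that rose in microglia lie on separate chromosomes except for Prdx1 (chr4:116685544-116700822, + strand) and Txn1 (chr4:57943373-57956411, - strand). Prdx2 is at chr8:84969587-84974834, Prdx5 at chr19:6906697-6910106, Prdx6 at chr1:161240112-161251219, Txnrd1 at chr10:82833951-82897712 and Sod2 at chr17:13006846-13040063. Srxn1 (chr2:152105516-152111376) and Cat (chr2:103453849-103485160) share a chromosome, and Sod1 is at chr16:90220754-90226329. The 3′ end of Prdx2 overlaps Junb on the other strand by 351 bases, and that of Sod1 overlaps Scaf4 by 650 bases. Reads from such partners can be told apart only by strand, and the sources used here do not give the strand setting of the counting. Eid3 lies within the span of Txnrd1 on the same strand, over 1305 bases, and strand does not separate that pair. The files also list Prdx6b, a copy of Prdx6, with 188 UMIs against 35995 for Prdx6 over all libraries, and Prdx2-rs3, with 19 against 12190 for Prdx2.

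Over all cells of a library, the difference between EAE ROS- and Healthy ROS- was larger, and 8 of the 10 genes were called higher. Over all 13631 genes tested 34% were called and 19.9% were called higher. Prdx5 was at 2207 and 4098 CPM in EAE ROS- against 242 and 261 in health (log2 fold change 4.14 ± 0.38, edgeR, adjusted p = 8.97e-05). Sod2 was at 642 and 1097 against 54.2 and 54.6 (4.49 ± 0.35), and Prdx6 at 254 and 686 against 24.8 and 52.5 (4.21 ± 0.57). Srxn1 could be tested here, at 10.2 and 20.7 against 2.26 and 2.19 CPM (3.27 ± 0.51, edgeR, adjusted p = 0.00137). Its call was lost without healthy replicate 1 (adjusted p = 0.0610). Sod1 (0.56 ± 0.24, edgeR, adjusted p = 0.0958) and Cat (-0.21 ± 0.27, edgeR, adjusted p = 0.561) again did not pass the test. These sums mix cell types: monocyte-derived cells, absent from the healthy libraries, made up 50.4% and 72.6% of the EAE ROS- libraries. In sums over all cells, more cells of a type and more RNA per cell cannot be told apart. With plain library totals the median of all genes moved by -0.49, and 1696 genes were called higher and 4021 lower instead of 2715 and 1914, while 8 members were still called higher.

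In that fit the other lists held 10 higher and 3 lower of 20 tested peroxiredoxin and thioredoxin genes, and 13 higher and none lower of 16 tested Nrf2 genes. They held 8 higher and none lower of 12 NF-kB targets, and 3 higher and 1 lower of 8 superoxide and peroxide genes. The medians were 0.71, 1.34, 1.34 and 0.26, against 0.01 over all genes tested. Slc7a11 (7.003 ± 0.38), Il1b (6.28 ± 0.47), Cxcl2 (5.53 ± 0.41), Msrb1 (4.61 ± 0.39) and Tnfaip2 (4.35 ± 0.32) had the smallest adjusted p-values together with Traf1. Traf1, an adaptor of TNF receptors, had no UMI in either healthy library. Its mean in EAE ROS- was at least 19.9-fold the healthy mean, taking 3 UMIs per healthy library as the floor. The lowest EAE ROS- library was at 34.85 CPM, and the highest healthy floor was 3.278 CPM.

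The next comparison set cells that stained for ROS at EAE onset against cells that did not. None of the 10 genes was called between EAE ROS+ and EAE ROS- in monocyte-derived cells, in microglia, or over all cells. In monocyte-derived cells edgeR called no gene of 12048 (0%), while 530 genes were under 0.05 before adjustment. DESeq2 called 10 genes higher there, and 39 lower. In microglia edgeR called no gene of 9033 (0%), with 493 under 0.05 before adjustment, and DESeq2 called 4. Over all cells 2.16% of 13631 genes were called, 0.125% higher and 2.04% lower; 1708 genes were under 0.05 before adjustment, and DESeq2 called 46 higher, and 375 lower. With 2 libraries a group, 33 and 21 cells in the ROS+ microglia, and wide spread between replicates, these tests do not show that the gates are alike.

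In monocyte-derived cells the libraries of the 2 gates interleaved for most members. Prdx5, the member with the most UMIs, was at 3914 and 4825 CPM in EAE ROS+ and at 3210 and 4959 in EAE ROS-, a log2 fold change of 0.13 ± 0.30 (edgeR, adjusted p = 0.996). Prdx6 was at 508 and 790 against 395 and 828, and Txn1 at 1224 and 1417 against 1041 and 1667. For all 3 genes both ROS+ libraries lay between the 2 ROS- libraries. Sod2 was at 1002 and 1204 CPM in ROS+ and at 988 and 1317 in ROS-, and Txnrd1 at 52.0 and 107 against 63.1 and 99.4. Prdx1 was the member with the largest fitted difference, lower in ROS+ by 0.24 ± 0.23 on the log2 scale, at 895 and 909 CPM against 936 and 1245 (edgeR, adjusted p = 0.996). Its ROS+ libraries both lay below the ROS- libraries. Prdx2 (176 and 184 against 157 and 190), Srxn1 (16.9 and 17.1 against 14.7 and 23.9), Sod1 (46.4 and 36.9 against 45.0 and 35.0) and Cat (21.8 and 16.0 against 18.7 and 18.6) overlapped between the gates. The median log2 fold change of the 10 members was 0.03, against -0.00 over all genes tested.

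In these cells replicate 2 was above replicate 1 in both gates for every member except Sod1 and Cat, for which it was below. Replicate numbers are not tied to a shared mouse, batch or day by the labels. Median depth fell from 9488 to 5448 UMIs per cell between replicates 1 and 2 of EAE ROS+ and from 7496 to 6649 in EAE ROS-, and its part in these differences was not tested.

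In microglia Prdx1 was at 940 and 618 CPM in EAE ROS+, on either side of the 721 and 778 of EAE ROS-. Prdx5 was at 1077 and 999 against 1031 and 962, and Txn1 at 671 and 526 against 555 and 563. All 3 overlapped between the gates. Sod2 was at 203 and 168 CPM in ROS+ and at 256 and 237 in ROS-, and both ROS+ libraries were lower, but the difference of -0.36 ± 0.25 did not pass the test (edgeR, adjusted p = 0.925). Prdx2 was at 158 and 160 against 162 and 191, again with both ROS+ libraries lower, and Prdx6 at 137 and 83.9 against 89.5 and 159. Txnrd1, Srxn1, Sod1 and Cat rested on 2 to 38 UMIs in each ROS+ library, and depth limits what can be seen for them. No member was called in the test of whether the gate difference itself differed between monocyte-derived cells and microglia. In that test of the interaction 0.19% of 12098 genes were called, all 23 of them lower, and the members' values ran from -0.66 ± 0.78 for Srxn1 to 0.40 ± 0.31 for Sod2.

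Over all cells the largest fitted gate differences were those of Prdx5 (0.61 ± 0.33, edgeR, adjusted p = 0.536), Prdx6 (0.59 ± 0.48, edgeR, adjusted p = 0.688) and Sod2 (0.48 ± 0.29, edgeR, adjusted p = 0.589). Microglia made up 34.3% and 15.8% of the EAE ROS- libraries and 1.89% and 0.940% of the EAE ROS+ libraries, and the part of cell composition in these values was not tested. Without EAE ROS- replicate 2, Prdx6 was called, at 1.54 (edgeR, adjusted p = 0.0382). No gene of the 4 other lists was called in any of the 3 gate comparisons.

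Among the cell classes of EAE ROS-, monocyte-derived cells held the most Prdx1, Prdx5, Prdx6, Txn1 and Sod2. Against microglia of the same libraries, 7 of 10 members were higher in monocyte-derived cells and none lower, while 34.2% of 8195 genes were called and 16.8% were called higher. The median log2 difference was 1.37 over the members and 0.00 over all genes tested. With plain library totals 1012 genes were called higher and 1753 lower, instead of 1374 and 1430, and Sod1 was then called lower (-0.59, adjusted p = 0.0273), as it was without the limit on monocyte-derived markers (-0.44, adjusted p = 0.0432).

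**Figure D3:**
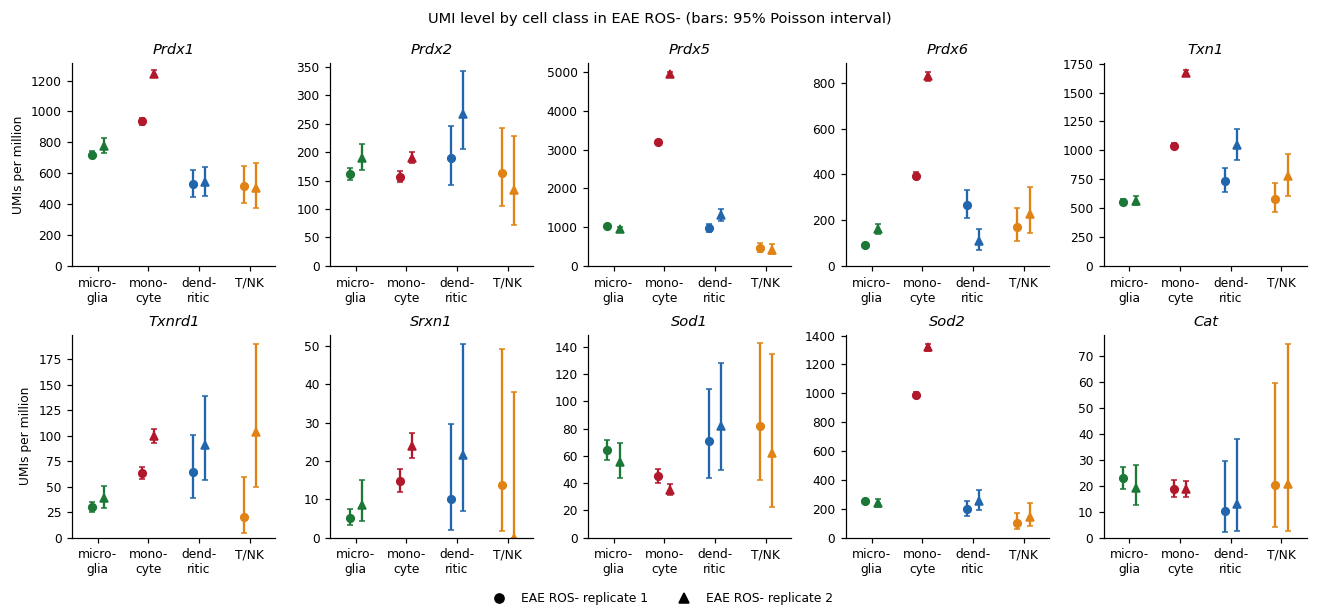
Each panel shows 1 gene in CPM in the 4 cell classes of the EAE ROS- libraries, from 0; points are libraries and bars their 95% Poisson intervals, which cover counting error only. Prdx5 and Sod2 in monocyte-derived cells stand above every other class in both libraries, while Prdx2 and Cat do not separate the classes.

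Prdx6 differed most between these classes. It was at 395 and 828 CPM in monocyte-derived cells and at 89.5 and 159 in microglia, a log2 difference of 2.46 ± 0.28 (edgeR, adjusted p = 1.16e-07). Sod2 was at 988 and 1317 against 256 and 237 (2.35 ± 0.22, edgeR, adjusted p = 2.18e-09), and Prdx5 at 3210 and 4959 against 1031 and 962 (2.16 ± 0.22, edgeR, adjusted p = 1.72e-08). For each of these genes the classes were far apart in both libraries. Txn1, at 1041 and 1667 against 555 and 563, was higher by 1.39 ± 0.21 on the log2 scale, and its reductase Txnrd1, at 63.1 and 99.4 against 29.8 and 38.6, by 1.35 ± 0.22. Srxn1, at 14.7 and 23.9 against 5.07 and 8.57 CPM, was higher by 1.66 ± 0.31. Prdx1 had the smallest of the 7 differences, 936 and 1245 against 721 and 778 CPM (0.70 ± 0.20, edgeR, adjusted p = 0.00647), and with classes taken from clusters its adjusted p was 0.0505. Prdx2 (0.14 ± 0.20), Cat (-0.05 ± 0.24) and Sod1 (-0.43 ± 0.20) did not pass the test.

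Dendritic cells were not called apart from microglia for Prdx5 (0.34 ± 0.22) or Sod2 (0.01 ± 0.24), and both genes were lower in them than in monocyte-derived cells. The comparison with microglia changed with the class rule. Without the limit on monocyte-derived markers Prdx5 (1.27, edgeR, adjusted p = 6.65e-05) and Sod2 (1.13, edgeR, adjusted p = 0.000416) were called higher in dendritic cells, and with classes taken from clusters Prdx5 was (1.07, edgeR, adjusted p = 0.00566). The dendritic cluster of 266 cells held 152 that the marker rule classed as monocyte-derived. Prdx5 was at 972 and 1305 CPM in dendritic cells and Sod2 at 196 and 255, from 287 and 302 and from 58 and 59 UMIs. Against monocyte-derived cells, 4 members were lower in dendritic cells: Sod2 (-2.35 ± 0.24), Prdx5 (-1.83 ± 0.23), Prdx6 (-1.57 ± 0.32) and Prdx1 (-1.02 ± 0.21). Sod1 was higher, at 71.1 and 82.1 against 45.0 and 35.0 CPM (0.92 ± 0.30, edgeR, adjusted p = 0.0416), on 21 and 19 UMIs. It was not called without the low count filter (adjusted p = 0.202), without the library block (adjusted p = 0.0737) or with classes taken from clusters (adjusted p = 0.0773). In this comparison 13.9% of 8195 genes were called, 6.66% higher and 7.27% lower. Against microglia, 3 members were higher in dendritic cells, where 25.7% of genes were called and 13.2% were called higher. They were Txnrd1 (64.3 and 90.8 CPM, 1.30 ± 0.33, edgeR, adjusted p = 0.00449), Txn1 (738 and 1046, 0.80 ± 0.22, edgeR, adjusted p = 0.00684) and Prdx6 (264 and 108, 0.89 ± 0.33, edgeR, adjusted p = 0.0467). Prdx6 in dendritic replicate 2 lay below microglia of that library, and its call was lost in 6 of the alternatives. With stricter marker limits the call for Txnrd1 was lost (0.41, adjusted p = 0.559) and Sod1 was called higher (1.39, adjusted p = 0.00734).

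T/NK cells, of which there were 25 and 21, held the least Prdx5. It was at 457 and 413 CPM, against 3210 and 4959 in monocyte-derived cells (log2 difference -3.53 ± 0.26, edgeR, adjusted p = 6.16e-11). Sod2 was at 102 and 145 CPM (-3.59 ± 0.29), Prdx6 at 170 and 227 (-1.92 ± 0.35), Prdx1 at 518 and 506 (-1.42 ± 0.22) and Txn1 at 579 and 774 (-1.33 ± 0.23). These 5 members were lower than in monocyte-derived cells and none was higher, where 19.1% of genes were called and 12% were called lower. Against dendritic cells 3 were lower, Prdx5 (-1.71 ± 0.26), Sod2 (-1.24 ± 0.33) and Txn1 (-0.75 ± 0.24), where 13.3% of genes were called, 4.37% higher and 8.97% lower. The call for Txn1 was lost in 7 alternatives and that for Sod2 in 4. Prdx5 was lost without the limit on monocyte-derived markers, where it was at -0.36 (adjusted p = 0.334), so none of the 3 was called under that rule.

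Against microglia 3 members were lower in T/NK cells, where 20.8% of genes were called, 8.43% higher and 12.4% lower: Prdx5 (-1.37 ± 0.25, edgeR, adjusted p = 0.000165), Sod2 (-1.23 ± 0.31, edgeR, adjusted p = 0.00421) and Prdx1 (-0.72 ± 0.22, edgeR, adjusted p = 0.0217). These calls depended on how the cells were chosen. Prdx1 was lost with plain library totals (adjusted p = 0.0854), without the library block (adjusted p = 0.0528), with stricter marker limits (adjusted p = 0.147) and with clusters (adjusted p = 0.0806). With stricter marker limits Sod2 was also lost (-0.39, adjusted p = 0.374) and Prdx6 was called higher (1.32, adjusted p = 0.0294). Without the limit on monocyte-derived markers, 31 and 33 T/NK cells were kept, their monocyte-derived markers were at 28.2 and 37.6 per 10000 instead of 16.9 and 18.1, and 4 members were called higher instead. Prdx5 was then at 0.91 (adjusted p = 0.00197) and Sod2 at 1.34 (adjusted p = 0.000151) on the log2 scale. With classes taken from clusters only Prdx6 was called, higher in T/NK cells, while Prdx5 was at -0.81 (adjusted p = 0.0649) and Sod2 at -0.31 (adjusted p = 0.491). The level of monocyte-derived markers in these T/NK cells was above that given earlier for EAE ROS- microglia. Its part in their Prdx5 and Sod2 counts was not tested.

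Scaling also moved the split between higher and lower genes in the T/NK comparisons. With plain library totals it was 889 higher and 831 lower against microglia (691 and 1017 with edgeR's scaling), 953 and 688 against monocyte-derived cells (582 and 983), and 610 and 516 against dendritic cells (358 and 735). The median of all genes moved by 0.19, 0.35 and 0.32. Dendritic cells against microglia gave 859 higher and 1227 lower, instead of 1080 and 1023. Members named as lower in T/NK cells kept their sign with that scaling, but 3 of the calls were lost: Prdx1 against microglia (-0.54, adjusted p = 0.0854), and Txn1 (-0.38, adjusted p = 0.303) and Sod2 (-0.88, adjusted p = 0.0768) against dendritic cells.

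The order of the 4 classes in EAE ROS- was then read gene by gene from the fitted differences. For Prdx5 and Sod2 monocyte-derived cells came first, then dendritic cells and microglia, which were not called apart, then T/NK cells. Only the first place held under every class rule, since both the pair in the middle and the place of T/NK cells changed with the rule, as given above. For Prdx1 monocyte-derived cells were followed by microglia, then by dendritic and T/NK cells, and neither microglia and dendritic cells nor dendritic and T/NK cells were called apart. For Prdx6 monocyte-derived cells were highest, and of the pairs among the other classes only dendritic cells and microglia were called apart, a pattern that also changed with the class rule. For Txn1 monocyte-derived and dendritic cells were not called apart (-0.58 ± 0.21, edgeR, adjusted p = 0.0715), though they were without the low count filter (-0.76, adjusted p = 0.00477) and with clusters (-0.69, adjusted p = 0.0340), and both were above microglia. For Txnrd1 monocyte-derived and dendritic cells were not called apart (-0.05 ± 0.30) and both were above microglia, while T/NK cells held 20.4 and 103 CPM from 3 and 10 UMIs and could not be placed. Prdx2 and Cat showed no called difference in any of the 6 pairs of classes. For Srxn1 the only called pair was monocyte-derived cells above microglia, and T/NK cells had 2 and 0 UMIs.

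The other lists are given by their counts in the same fits, beside the share of all genes called, and differences between lists were not tested. Of 12 NF-kB targets, 9 were higher and 1 lower in monocyte-derived cells than in microglia, and likewise 9 and 1 in dendritic cells, where 34.2% and 25.7% of all genes were called. Of 15 tested Nrf2 genes, 6 were higher and none lower in monocyte-derived cells than in microglia, led by Gsr, the glutathione reductase (2.17 ± 0.22), and Slc7a11 (2.35 ± 0.26). Dendritic cells had 2 higher and 3 lower of them than microglia, near the share of all genes, and none higher and 6 lower than monocyte-derived cells, where 13.9% of all genes were called, with Hmox1, the heme oxygenase, at 0 and 13.0 CPM against 116 and 224. T/NK cells had none higher and 9 lower than microglia, where 20.8% of all genes were called, led by the ferritin genes Ftl1 (-2.00 ± 0.21) and Fth1 (-1.68 ± 0.21). Among the 18 tested peroxiredoxin and thioredoxin genes outside the members, monocyte-derived cells had 3 higher and 4 lower than microglia, near the share of all genes, with Msrb1 higher by 2.42 ± 0.24. Prdx4, the peroxiredoxin of the endoplasmic reticulum, was lower than in microglia in dendritic cells (-2.75 ± 0.36) and in T/NK cells (-2.10 ± 0.38). Txndc17, a small thioredoxin-like protein, was higher in dendritic cells than in microglia (1.58 ± 0.23). Gpx1, the main cytosolic glutathione peroxidase, was lower in T/NK cells than in microglia (-2.15 ± 0.28).

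The members also varied between clusters. Cells were clustered on other genes, with the 10 members left out, and the 6 clusters that hold most monocyte-derived cells are described by their number and leading genes; their levels are sums over all cells of the cluster, given with no test. Monocyte-derived cells made up 97.4% to 99.4% of the cells in 5 of these clusters and 42.8% in cluster 7. Cluster 1, led by Inhba, Clec4n, Ccl6, Nos2 and Il1a, had the highest mean Prdx1, Prdx5, Prdx6, Txn1, Srxn1 and Sod2 of the 6. Its Prdx5 ran from 4460 to 6093 CPM over the 4 EAE libraries, its Sod2 from 1430 to 1875 and its Srxn1 from 21.8 to 32.8. Cluster 3, led by Ms4a7, Spp1, Fabp5 and Apoe, had Prdx5 at 2612 to 3183, Sod2 at 626 to 854 and Txnrd1 at 37.2 to 50.9 CPM. For Prdx5, Txn1, Txnrd1, Srxn1 and Sod2 the whole range of cluster 1 lay above that of cluster 3. Sod1 went the other way, at 22.4 to 38.3 CPM in cluster 1 and 43.8 to 48.6 in cluster 3. The ranges of Prdx1, Prdx2, Prdx6 and Cat overlapped. How many of all genes fail to overlap between these clusters, which were made from expression, was not computed.

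**Figure D4:**
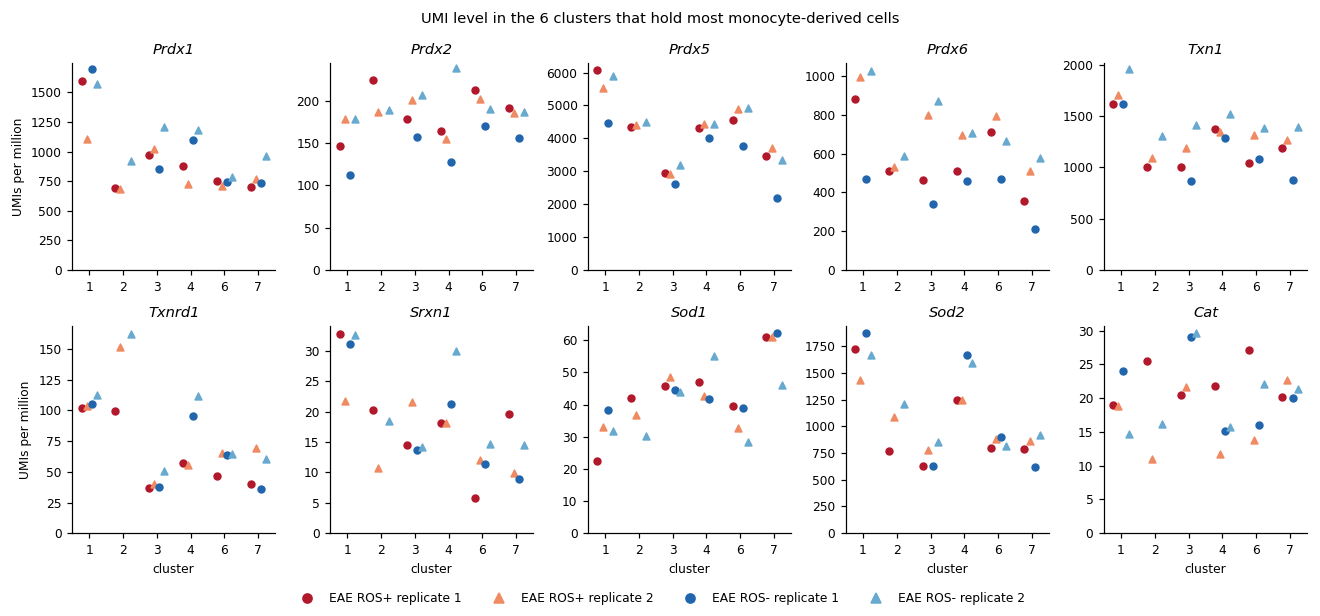
Each panel shows 1 gene in CPM, from 0, in the 6 clusters by number; points are EAE libraries with at least 20 cells in the cluster. Cluster 1 stands high for Prdx1, Prdx5, Txn1, Srxn1 and Sod2, clusters 1 and 2 for Txnrd1, and cluster 7 for Sod1, while replicate 2 libraries (triangles) are often above replicate 1 for Prdx6.

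Cluster 2, led by S100a9, Ngp, S100a8, Camp and Ifitm6, a mix of monocyte and neutrophil granule genes, had Txnrd1 at 99.3 to 162 CPM in the 3 libraries with at least 20 cells. Its Srxn1, at 10.8 to 20.4, was below that of cluster 1 in each of these libraries. The Txnrd1 of cluster 1, at 102 to 113, lay within the range of cluster 2. Cluster 4, led by Saa3, Ccl5 and Cxcl1, held Sod2 at 1244 to 1667 CPM with Prdx5 at 4008 to 4447. Cluster 6, led by Ifitm1, Il1r2, Ccr2 and Ccl17, had Sod2 at 800 to 898 with Prdx5 at 3754 to 4917, so a similar Prdx5 level went with different Sod2 levels. Cluster 7 is no cluster of that class alone: 226 of its 528 cells were classed as monocyte-derived, 82 as microglia and 220 were unassigned. It was led by Sparc, Cd81, Ccl12, the histone gene Hist1h2ap and the microglial gene Siglech. The cluster held the deepest cells of each library, and had Sod1 at 46.1 to 62.4 CPM and Prdx5 at 2183 to 3698.

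The clusters were unevenly spread over the libraries. Cluster 1 held 3.76% and 35.4% of the monocyte-derived cells of EAE ROS+ and 6.02% and 46.9% of those of EAE ROS-. Cluster 2 held 7.1% and 43.3%, and 1.97% and 14%. Cluster 3 held 35.9% and 6.99%, and 26.4% and 7.84%. Cluster 4 held 38.7% and 3.88%, and 23.6% and 6.76%. In both gates, then, replicate 1 was richer in clusters 3 and 4 and replicate 2 in clusters 1 and 2. Mean Prdx5 was 5493 CPM in cluster 1, 4430 in cluster 2, 2911 in cluster 3 and 4299 in cluster 4. Mean Sod2 was 1674, 1023, 722 and 1438 CPM in the same order. Within cluster 3, Prdx5 was at 2947 and 2904 CPM in EAE ROS+, where the 2 replicates of the whole class had 3914 and 4825. The EAE ROS- libraries held the ends of that cluster's Prdx5 range, from 2612 to 3183 CPM, so they differed inside it. Prdx6 differed between replicates of both gates inside that cluster, at 464 and 801 CPM in EAE ROS+ and at 341 and 868 in EAE ROS-. The part of the cluster shares in these replicate differences was not tested.

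The 2 clusters of healthy microglia gave similar values for most members. Cluster 0, led by Cldn5, which is among the endothelial markers used here, and Maf, had Prdx5 at 231 and 261 CPM and Sod2 at 51.4 and 49.7. Cluster 8, led by the immediate-early genes Klf2, Ier2 and Jun, had Prdx5 at 258 and 262 and Sod2 at 57.2 and 73.3. Cat was at 30.3 and 40.0 in cluster 0 and at 24.8 and 26.2 in cluster 8. The EAE microglia of cluster 5, led by Cd74 and H2-Aa, had Prdx5 at 775 and 774 CPM in EAE ROS- and Sod2 at 149 and 199, above both healthy clusters.

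Over the 14 sums of 1 class in 1 library with at least 20 cells, the genes whose log2 level followed each member most closely were looked up among 2656 genes. The sums share libraries, depth and class markers, so the correlations are descriptions. Prdx5 and Sod2 were near each other, with Pearson's r of 0.98, and each also followed Tgfbi (0.99 and 0.98), which is a marker used to class monocyte-derived cells. Prdx1 was closest to Cyp4f18 (0.96) and Pla2g7 (0.95), Txn1 to Shfm1 (0.97) and AW112010 (0.97), and Prdx2 to Psme2 (0.94) and Tspo (0.93). Prdx6 was closest to Ero1l (0.94) and Eif4ebp1 (0.93), Txnrd1 to Nipsnap3b (0.93) and Ptp4a1 (0.91), and Srxn1 to 1810033B17Rik (0.91) and Ap2s1 (0.90). Sod1 had the weakest nearest genes, H2afv (0.83) and Eef1b2 (0.79). Cat was closest to Pon2 (0.90) and Egr1 (0.89), and its r with each of the other 9 members was negative, from -0.74 with Prdx2 to -0.20 with Sod1.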

How the data were processed

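For each library the authors deposited a matrix of UMI counts (genes by barcodes), made with Cell Ranger 2.0.1 on mm10, per the submitters' processing notes, which also name Seurat 3 and R 3.4.2. The members and gene lists were chosen with earlier results of these data known. Counts were summed per library, or per class and library with at least 20 cells, and levels are CPM, with each sum scaled to 1000000. Sums were tested with edgeR 4.0.16 (quasi-likelihood test, TMM scaling, genes kept by filterByExpr at a count of 10), with Benjamini-Hochberg adjustment over all genes tested and a threshold of 0.05. Groups were fitted together to share 1 estimate of the spread, and class pairs had the library as a block. Errors are SE from the F statistic. All 10 members were named, and up to 6 called genes per comparison from the other lists, by adjusted p. Clusters came from Leiden clustering (scanpy 1.11.5) without the members. No doublet caller was run. Some of these fits were also run on simulated counts, drawn with the same spread for every gene. That is no test of them at the spread of single genes in these libraries. Alternatives were DESeq2 1.42.0, other scalings, filters, class rules, blocks and left-out libraries. Stricter marker limits, plain library totals, fits of the EAE libraries only and the rule without a limit on monocyte-derived markers were added after seeing the data. Intervals cover counting error only.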

Additional observations from a re-analysis of the deposited data

How the results depend on the processing

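In all, 41 of 118 tests of a member passed the threshold, and 1396 values of members were computed under alternatives. Of the 100 values whose sign turned, 96 belonged to members that had not passed the threshold, none of them over 0.845 in size on the log2 scale. The other 4 were Prdx5 and Sod2 in T/NK cells against microglia and Sod2 in T/NK against dendritic cells, all without the limit on monocyte-derived markers, and Prdx6 in dendritic cells against microglia without EAE ROS- replicate 1. No sign turned in either comparison of EAE ROS- with Healthy ROS-. Where a value changed, the cause was not tested.

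The number of members called moved by over 1.5 times as follows. Over all cells it was 2 between the gates with the replicate block over the EAE libraries only (Prdx5 at 0.66, edgeR, adjusted p = 0.0410, and Prdx6 at 0.73, edgeR, adjusted p = 0.0174, both higher in ROS+), and 0 to 1 with 1 library left out. Without the limit on monocyte-derived markers it was 5 for dendritic cells against microglia, 4 for T/NK cells against microglia and 0 for T/NK against dendritic cells. With classes from clusters it was 1 for T/NK cells against microglia and 1 for T/NK against dendritic cells, and the latter was also 1 with plain library totals.

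Between the gates over all cells, log2 values turned for Prdx1 (-0.11) and Cat (-0.031) with plain totals, and for Sod1 with DESeq2 (0.042), RLE size factors (0.042) and no low count filter (0.0064). In microglia Prdx5 turned with no filter (-0.019), and Prdx6 with RLE (0.0026), the replicate block (0.12), that block over the EAE libraries only (0.11), the EAE libraries only (0.014), the stricter cell filter (0.19) and clusters (0.31). Under the stricter cell filter EAE ROS+ replicate 2 kept under 20 microglia, so that value rests on replicate 1 for the ROS+ gate. In monocyte-derived cells Txn1 was 0.0098 with DESeq2 and RLE, 0.037 with no filter and with the replicate block, and 0.12 with clusters. Txnrd1 was 0.010 with DESeq2, 0.0087 with RLE, 0.032 with no filter, 0.13 in cells with no UMI of another class's markers and 0.22 with clusters. Srxn1 (0.034) and Sod2 (0.14) turned with clusters, Sod2 (0.012) with no filter, and Sod1 (-0.048) in cells with no UMI of another class's markers. In the interaction Txn1 (0.090) and Cat (0.044) turned with no filter.

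Between classes Prdx2 turned with plain totals in monocyte-derived cells against microglia (-0.031). In dendritic cells against microglia Sod2 was -0.052 with DESeq2, -0.054 with RLE, -0.17 with plain totals and with no filter, and -0.057 with the stricter cell filter, and Prdx1 was 0.012 without the marker limit. In T/NK cells against microglia Prdx5 (0.91) and Sod2 (1.34) turned without the marker limit, Txn1 (-0.15), Srxn1 (-0.057) and Sod1 (-0.11) with no filter, and Txnrd1 (-0.0025) with stricter marker limits. Txnrd1 was 0.14 with clusters in dendritic against monocyte-derived cells, and Cat 0.14 with plain totals in T/NK against monocyte-derived cells. In T/NK against dendritic cells Prdx6 was 0.43 with stricter marker limits, and without the marker limit it was 0.37 and Sod2 0.20, while Srxn1 was 0.33 with clusters.

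With 1 library left out, gate values over all cells ran from -0.18 to 0.36 for Prdx1, -0.020 to 0.86 for Txn1, -0.22 to 0.96 for Txnrd1, -0.15 to 0.94 for Srxn1, -0.21 to 0.17 for Sod1 and -0.091 to 0.35 for Cat. In microglia they ran from -0.42 to 0.40 for Prdx1, -0.15 to 0.18 for Prdx5, -0.68 to 0.33 for Prdx6, -0.24 to 0.34 for Txn1, -1.28 to 0.71 for Txnrd1 and -0.33 to 0.79 for Sod1. In monocyte-derived cells they ran from -0.42 to 0.010 for Prdx1, -0.041 to 0.26 for Prdx2, -0.15 to 0.51 for Prdx5, -0.32 to 0.78 for Prdx6, -0.30 to 0.41 for Txn1, -0.56 to 0.42 for Txnrd1, -0.45 to 0.27 for Srxn1, -0.092 to 0.31 for Sod1, -0.22 to 0.22 for Sod2 and -0.20 to 0.31 for Cat. In the interaction they ran from -0.57 to 0.26 for Prdx1, -0.30 to 0.59 for Prdx5, -0.33 to 1.21 for Prdx6, -0.44 to 0.42 for Txn1, -0.15 to 0.81 for Txnrd1, -0.49 to 0.29 for Sod1 and -0.48 to 0.12 for Cat. Between classes a single library gives a value with no test: Cat -0.21 and 0.20 in monocyte-derived cells against microglia; Prdx5 -0.10 and 0.73, Prdx6 -0.27 and 1.54, and Sod2 -0.40 and 0.39 in dendritic cells against microglia. In T/NK cells against microglia they were Txn1 -0.24 and 0.26, Txnrd1 -0.85 and 1.22, and Sod1 -0.044 and 0.053, and against dendritic cells Prdx6 -0.92 and 0.59 and Srxn1 0.14. No Srxn1 value is given where T/NK cells had no UMI.

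Replicate numbers were checked as pairs: deviations of same-numbered EAE ROS+ and EAE ROS- libraries from their group means correlated at 0.64 over all cells, 0.27 in microglia and 0.61 in monocyte-derived cells, and those of EAE ROS- and Healthy ROS- at -0.019 and -0.059. With only 2 pairs and no shared origin in the labels, the block is not a main result. With it, genes called between the gates went from 17 higher and 278 lower to 78 and 518 over all cells (651 and 1188 over the EAE libraries only), and from 0 to 8 higher and 16 lower in monocyte-derived cells. In microglia it called 0 genes, and 63 higher and 10 lower over the EAE libraries only. Without the library block the interaction called 0 genes.

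Over all alternatives the number of genes called between the gates ran from 123 to 1839 over all cells, 0 to 73 in microglia and 0 to 181 in monocyte-derived cells, and in the interaction from 0 to 149. Against Healthy ROS- it ran from 2364 to 5717 over all cells and from 1238 to 2839 in microglia. Between classes it ran from 1271 to 3585 (monocyte-derived against microglia) and, in the other pairs, fell to as few as 581. Cells with no UMI of another class's markers could be used only between the gates in monocyte-derived cells. EAE microglia, dendritic cells and T/NK cells kept under 20 such cells in each library. Stricter marker limits were not run for the gates in microglia or for the interaction, nor the stricter cell filter for the interaction, for the same reason. Depth limits Srxn1, Cat and Txnrd1 most, and the classes with few cells.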
